A study of Mus musculus with 12 samples.

Results

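The cytoplasmic ribosomal protein genes were followed through prophase I of mouse spermatocytes by the transcription initiation at their starts. They were taken by symbol as the autosomal protein-coding genes named Rpl or Rps with digits and at most 1 letter, together with Rplp0, Rplp1, Rplp2 and Rpsa and without Rpl10l. This gave 75 of 20807 autosomal protein-coding genes, of which 45 encode proteins of the large subunit and 30 encode proteins of the small subunit. Nascent RNA was measured by leChRO-seq, a chromatin run-on assay that marks RNA held by engaged RNA polymerase, in cells enriched for leptonema/zygonema, pachynema or diplonema. Each substage had 4 libraries from wild-type adult mice, and all 12 libraries share that genotype, so the substage is the only labelled difference. Mouse backgrounds in the study were C57Bl/6J and DBA/2J, and the labels do not say which gave these libraries. The cells were separated by size and density in a STAPUT gradient, which enriches a substage without isolating it, and animals were pooled. Peaks were called by the authors with dREG, a classifier that finds sites of divergent initiation at promoters and enhancers. A single list per substage was analysed, which its name gives as merged, so no spread between replicates can be given.

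A ribosome is built from ribosomal RNA and a set of proteins that are needed in near-equal number, and the genes for these proteins are scattered over the genome. Their promoters are active in nearly all growing cells, and many of their transcripts start within a pyrimidine tract, the 5′ terminal oligopyrimidine (TOP) motif, through which mTOR and LARP1 control their translation. In male germ cells the X chromosome is silenced during pachynema, and autosomal copies such as Rpl10l and Rpl39l are known to serve in place of X-linked ribosomal protein genes.

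The starts of the members carried a pyrimidine tract more often than those of all promoters did. A few short promoter strings were also more frequent in members, but these strings were chosen with the member promoters in view. Their higher shares may follow from that choice and are given as description only. The 80 bases around the RefSeq start (60 before it and 20 from it, GRCm38, 5′ to 3′ on the strand of the gene) are shown for the 5 members that ranked highest and the 5 that ranked lowest in dREG score among those with an entry, since the ends of the ranking are where a difference in sequence would be looked for. Capitals mark the longest run of C and T. The 5 highest were as follows.
Rpl37, chr15:5116553-5116632, plus strand: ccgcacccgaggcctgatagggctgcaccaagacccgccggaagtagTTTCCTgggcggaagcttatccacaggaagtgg
Rpl34, chr3:130730318-130730397, minus strand: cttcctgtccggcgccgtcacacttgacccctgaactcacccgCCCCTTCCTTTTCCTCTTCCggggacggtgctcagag
Rps10, chr17:27635225-27635304, minus strand: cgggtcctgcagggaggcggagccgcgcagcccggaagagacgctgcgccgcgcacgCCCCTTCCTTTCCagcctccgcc
Rps7, chr12:28635934-28636013, minus strand: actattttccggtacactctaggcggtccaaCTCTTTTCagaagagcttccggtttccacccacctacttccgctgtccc
Rpl37a, chr1:72711200-72711279, plus strand: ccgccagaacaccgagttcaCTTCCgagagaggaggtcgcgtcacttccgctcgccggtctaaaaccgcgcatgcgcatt
The 5 lowest were as follows.
Rpl27a, chr7:109519135-109519214, plus strand: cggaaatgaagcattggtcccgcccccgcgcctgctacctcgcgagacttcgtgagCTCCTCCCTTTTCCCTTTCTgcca
Rplp0, chr5:115559407-115559486, plus strand: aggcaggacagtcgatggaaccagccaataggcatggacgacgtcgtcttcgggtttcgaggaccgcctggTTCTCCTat
Rps16, chr7:28350629-28350708, plus strand: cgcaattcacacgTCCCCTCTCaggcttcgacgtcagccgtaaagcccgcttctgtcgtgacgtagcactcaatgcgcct
Rpl7a, chr2:26910747-26910826, plus strand: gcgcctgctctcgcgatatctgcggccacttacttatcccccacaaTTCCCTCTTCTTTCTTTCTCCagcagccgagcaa
Rpl12, chr2:32961652-32961731, plus strand: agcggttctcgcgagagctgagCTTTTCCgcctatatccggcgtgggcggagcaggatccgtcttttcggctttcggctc
The run was 20 bases long at Rpl34 and crossed the start, but it was 21 bases long at Rpl7a and 20 at Rpl27a, which stand at the other end of the ranking. At Rpl37, which ranked highest, the longest run held 6 bases.

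RefSeq held 67 promoters (250 bases before the start and 50 from it) for 55 of the members, against 20085 promoters of all autosomal protein-coding genes in the table. The start itself was a C followed by 4 pyrimidines in 13 member promoters (19.4%) and in 2.23% of all promoters. These 13 belonged to Rpl14, Rpl15, Rpl28, Rpl35, Rpl35a, Rpl38, Rplp2, Rps6, Rps10, Rps15a, Rps18, Rps21 and Rps27. A run of 8 or more pyrimidines within the 80 bases was found in 61.2% of member promoters and in 31.0% of all. The share of C or T at the fifth base was 77.6% among members and 51.6% among all promoters. The TOP motif depended on the start that was taken: at the 5′ end of the GENCODE gene the C with 4 pyrimidines was found in 7.27% of the same 55 genes and in 2.32% of all.

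**Figure D1:**
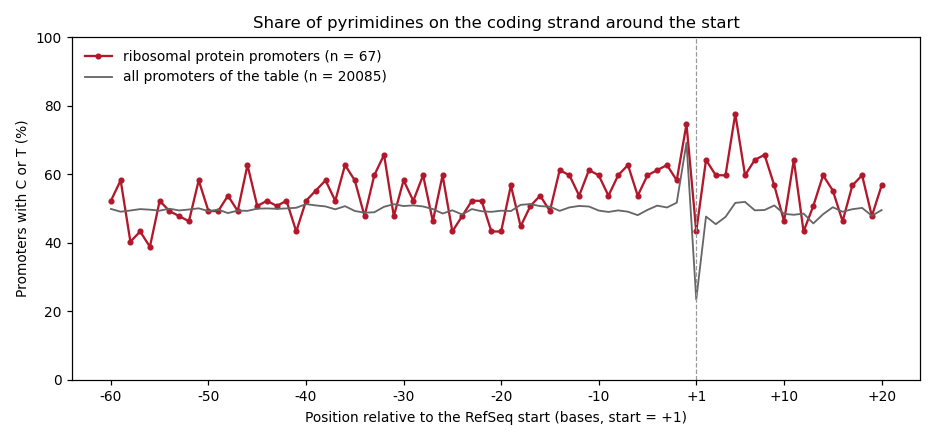
Share of promoters with C or T at each base from 60 before to 20 from the RefSeq start (x axis, bases; y axis, percent), for the 67 promoters of ribosomal protein genes (red points) and all 20085 promoters of the table (grey line). The red line lies above the grey line at each of the first 9 bases of the transcript, and both dip at the start itself, where 43.3% of member promoters and 23.4% of all promoters have C or T.

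10 short strings, chosen with the member promoters in view, were searched on both strands of the 300 bases; none of them contains another. TCTCGCGA, a string with a CGCG centre, was present in 16.4% of member promoters and in 1.36% of all promoters. CCGGAAG, the core recognised by ETS factors such as GABPA, was present in 37.3% of member promoters and 11.9% of all. ATGGCG, part of the YY1 motif and also a string that can hold a start codon, was present in 31.3% and 11.0%. CTTTCC, a pyrimidine hexamer, was present in 49.3% and 26.0%. TGACGTCA, the cyclic AMP response element, was present in 7.46% and 2.30%. The TATA string TATAAA went the other way, at 5.97% of member promoters (Rpl22, Rplp0, Rps2 and Rps28) and 12.7% of all. GGGCGG, the GC box bound by SP1, was present in 56.7% of member promoters and 47.0% of all, but the order turned at GENCODE 5′ ends (43.6% and 44.8%) and in the 100 bases before the RefSeq start (31.3% and 33.8%). GCATGCGC, part of the NRF1 motif, was present in 4.48% and 3.55%, an order that also turned at GENCODE 5′ ends (1.82% and 3.77%) and in the 100 bases (0% and 1.94%). GCAGTT, part of the MYB motif, was present in 13.4% and 13.1%, and in 1.49% and 4.06% in the 100 bases. GTTGCCA, part of the RFX motif, was present in 1.49% and 4.21%. A match is a run of letters and no evidence of binding. Because the strings were chosen with the member promoters in view, a higher share in member promoters cannot be read as a tested enrichment.

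Nearly all members had a dREG peak at a start. A peak less than 1000 bp from an annotated start was found for 71 of the 75 members in leptonema/zygonema, for 69 in pachynema and for 64 in diplonema, where 60.7%, 61.2% and 52.3% of all autosomal protein-coding genes had one. In all 3 substages a peak was found for 64 members, against 50.2% of all genes. The calls were nested: each member called in diplonema had been called in pachynema, and each called in pachynema had been called in leptonema/zygonema. Of all genes called in pachynema, 5.85% had not been called in leptonema/zygonema, and of those called in diplonema 1.38% had not been called in pachynema and 3.62% had not been called in leptonema/zygonema. The same nesting was found in 2 other families of widely expressed genes, the proteasome subunits and the subunits of complex I of the respiratory chain. Among the proteins of the mitochondrial ribosome, 1 gene called in diplonema had not been called before. All 30 small subunit genes had a peak in leptonema/zygonema and in pachynema.

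Calls were lost at 2 members between leptonema/zygonema and pachynema (5.14% of all genes called in the first lost theirs) and at 5 members between pachynema and diplonema (15.6% of all genes called in pachynema). The diplonema list holds 38603 peaks, against 71107 and 68352 in the earlier substages, and the depth of the libraries is not part of the lists. With each list reduced to its 38603 highest-scoring peaks, 70, 67 and 64 members had a peak.

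Members that were called until pachynema and not in diplonema included Rpsa, Rps25, Rpl28 and Rpl41. Their scores were placed as percentiles, from 0 (lowest) to 100 (highest), among the 10439 autosomal protein-coding genes with a peak in all 3 substages. Rpsa, a small subunit protein also known as the laminin receptor, stood at 11.6 in leptonema/zygonema and 0.259 in pachynema. Rps25, which takes part in initiation at internal ribosome entry sites, stood at 12.9 and 3.28, with a peak that is also near a start of Trappc4. Rpl28, a large subunit protein, stood at 32.7 and 8.56. Rpl41, the shortest ribosomal protein, stood at 26.1 and 7.84, and its nearest peak in diplonema lay 1082 bp away, just outside the limit. Each of these 4 thus stood lower in pachynema than in leptonema/zygonema. Rpl27, a large subunit protein, and Rpl35, which lies at the exit of the peptide tunnel, were called in leptonema/zygonema alone, with scores of 0.596 and 0.386. These 2 were among the weakest calls of the family in that substage, and the Rpl35 peak was also less than 1000 bp from a start of Arpc5l.

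Rpl7, Rpl32, Rpl36 and Rpl3l had no peak in any substage. The nearest peak to a start of Rpl7 lay 1169 bp away in leptonema/zygonema, 1079 bp in pachynema and 1039 bp in diplonema, close to the 1000 bp limit. At Rpl32 it lay 15104, 15244 and 14604 bp away. At Rpl36 it lay 3116, 3176 and 13125 bp away. Rpl3l, the paralog of Rpl3 that is made in heart and skeletal muscle, had its nearest peak at 3120, 3140 and 3586 bp. The members just inside the limit were not close to it: the farthest highest-scoring peak of a member was that of Rpl13a, at 550 bp in leptonema/zygonema, 530 bp in pachynema and 580 bp in diplonema.

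Peaks lay over the start at nearly all members. The highest-scoring peak covered an annotated start at 67 of 71 members in leptonema/zygonema, 67 of 69 in pachynema and 61 of 64 in diplonema, against 82.7%, 81.4% and 81.8% of all genes with a peak. As shares of the members these were 94.4%, 97.1% and 95.3%. The share was also above that of all genes in the mitochondrial ribosome (94.4%, 95.6% and 93.5%), the proteasome (97.2%, 94.3% and 88.2%) and complex I (91.2%, 83.9% and 86.2%). The members also have more annotated starts, with a median of 6 per gene against 3 over all genes, and the part of the annotation in this difference was not tested. The centre of the peak lay a median of 20.5 bp before the start in leptonema/zygonema, 19.5 bp in pachynema and 11.5 bp in diplonema. The median width was 610, 670 and 620 bp, and that over all genes was 580, 620 and 570 bp.
The highest-scoring peak was the same region from substage to substage at nearly all members: it overlapped at 67 of 69 members between leptonema/zygonema and pachynema (89.1% of all genes) and at 63 of 64 between pachynema and diplonema (88.8% of all genes). Rpl3 (chr15:80077791-80091868, minus strand) was an exception. Its highest peak in leptonema/zygonema lay 238 bp from the 5′ end of the gene, whereas in pachynema and diplonema it lay 8138 and 7988 bp inside the gene, over another annotated start. Rpl17, Rpl18, Rps10, Rps14 and Rps24 had their highest peak 1000 bp or more from the annotated 5′ end in all 3 substages.

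**Figure D2:**
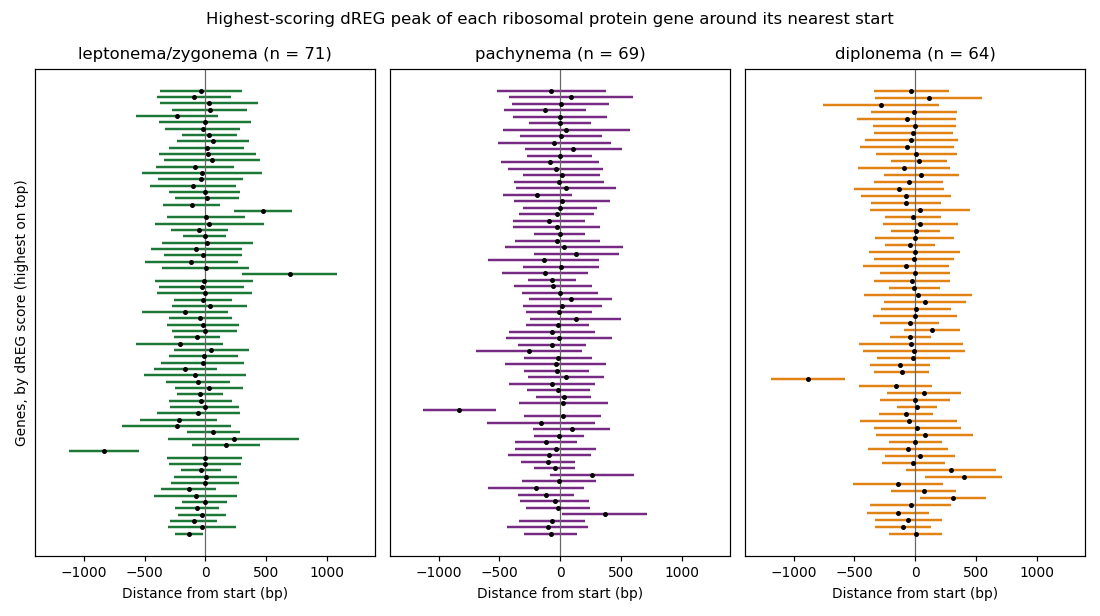
Extent (line) and centre (black point) of the highest-scoring dREG peak of each ribosomal protein gene, by distance in bp from the nearest annotated start in the direction of transcription, in leptonema/zygonema (71 genes), pachynema (69) and diplonema (64), ordered by score. Most lines cross 0, and the few that do not include Rpl13a, at 550, 530 and 580 bp before its start.

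The members had neither uniformly high nor uniformly low dREG scores. Scores have no set upper bound and cannot be compared in size from list to list, so each gene was compared by the percentile of its highest start-proximal score among the 10439 genes with a peak in all 3 substages. A percentile is a rank of confidence in initiation and not an amount of RNA. Over the 64 members ranked, the median percentile was 50.1 in leptonema/zygonema (quartiles 27.6 and 76.4), 46.0 in pachynema (28.6 and 71.8) and 43.2 in diplonema (25.5 and 64.9). The lowest and highest members stood at 11.1 and 97.5 in leptonema/zygonema, 6.28 and 99.8 in pachynema, and 0.714 and 99.9 in diplonema. The median score of the same members was 1.10, 1.07 and 0.799, and that of all ranked genes was 1.10, 1.10 and 0.855. At the 90th percentile or above stood 5, 3 and 4 members, where 9.90%, 10.1% and 10.0% of all ranked genes stood. The ranking leaves out genes without a peak: among all autosomal protein-coding genes, with those lacking a peak tied lowest, the median of the 75 members was 68.1, 71.2 and 68.6.

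Medians were higher for the small than for the large subunit in each substage. The 27 ranked small subunit genes had median percentiles of 59.6, 62.2 and 45.4 in leptonema/zygonema, pachynema and diplonema, and the 37 ranked large subunit genes had 38.2, 40.6 and 34.2. The quartiles of the 2 groups overlapped in each substage, from 25.9 to 79.1 for the small and from 29.1 to 62.1 for the large subunit in leptonema/zygonema. In diplonema the upper quartile went against the medians, at 80.5 for the large and 60.2 for the small subunit. The 61 ranked genes for proteins of the mitochondrial ribosome had medians of 56.2, 60.2 and 54.8, the 34 proteasome genes 49.5, 59.1 and 58.4, and the 29 complex I genes 43.8, 47.7 and 48.8. In diplonema the cytoplasmic ribosomal protein genes thus had the lowest median of these families, at 43.2.

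**Figure D3:**
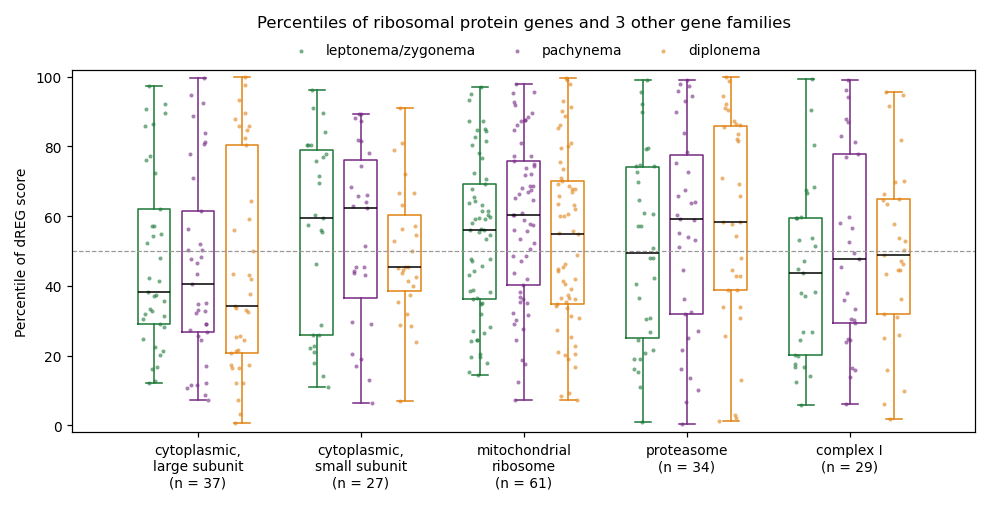
Percentile of the highest start-proximal dREG score (y axis) for cytoplasmic ribosomal protein genes by subunit and for 3 other families of widely expressed genes, in leptonema/zygonema (green), pachynema (purple) and diplonema (orange). Points are genes, boxes show the quartiles and median, whiskers reach the lowest and highest gene, and the dashed line marks percentile 50. The large subunit medians are 38.2, 40.6 and 34.2 and the small subunit medians 59.6, 62.2 and 45.4.

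The 5 members with the highest mean percentile were 4 genes of the large and 1 of the small subunit. Rpl37 (chr15:5116645-5119140, plus strand) scored 1.38, 1.44 and 1.19 in leptonema/zygonema, pachynema and diplonema, at percentiles 97.5, 99.8 and 93.3. Rpl34 (chr3:130726831-130730398, minus strand) scored 1.32, 1.32 and 1.25, at percentiles 92.2, 94.8 and 97.5. Rpl30 (chr15:34440505-34443640, minus strand), which also binds the selenocysteine insertion element, scored 1.30, 1.28 and 1.37, at percentiles 89.6, 88.6 and 99.9. Rpl30 was thus near the top of all ranked genes in diplonema, and Rpl37 and Rpl34 stayed above the 90th percentile throughout. Rpl3, whose protein lines the peptidyl transferase centre, stood at 72.4, 92.4 and 89.6, with the change of peak described above and a peak in leptonema/zygonema that is also near a start of Syngr1. Rps10, mutated in Diamond-Blackfan anaemia, stood at 91.0, 81.8 and 79.0 with a highest peak that is also near a start of the readthrough locus RPS10-NUDT3.

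The 5 with the lowest mean percentile were Rpl23a, Rpl27a, Rplp0, Rps16 and Rpl7a. Rpl23a, which forms part of the platform where nascent chains leave the ribosome, scored 0.713, 0.729 and 0.334, at percentiles 12.2, 12.1 and 3.14. Rpl27a scored 0.782, 0.718 and 0.286, at percentiles 16.0, 11.5 and 0.714, which was the lowest percentile among the 64 ranked members. Rps16 scored 0.863, 0.812 and 0.387, at percentiles 21.1, 17.0 and 6.85. All 3 were below percentile 25 in each substage and lowest in diplonema. Rpl7a scored 0.982, 0.663 and 0.391, at percentiles 31.9, 8.63 and 7.14, and its highest peak was also near a start of Med22.

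The stalk and the 5S particle were not uniform. Of the acidic stalk, which recruits the elongation factors, Rplp0 stood at percentiles 16.8, 7.27 and 12.1, Rplp1 at 76.2, 50.2 and 33.0, and Rplp2 at 57.0, 52.0 and 64.4. Rplp0 was the lowest of the 3 in each substage, while Rplp1 went from the highest to a place between the others. Rpl5 and Rpl11, which bind 5S ribosomal RNA and, when free, the p53 ligase MDM2, changed places. Rpl5 stood at 86.5, 46.4 and 43.4, and Rpl11 at 41.5, 61.6 and 84.6. Rpl5 was above Rpl11 in leptonema/zygonema and below it in pachynema and diplonema.

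Of the members that are paralogs of other ribosomal protein genes, 2 had a peak in each substage and stood above the middle of the ranking. Rpl39l, the autosomal paralog of X-linked Rpl39 that is enriched in testis, scored 1.24, 1.25 and 1.12, at percentiles 77.4, 83.9 and 86.0. Rps27l, a p53-responsive paralog of Rps27, scored 1.23, 1.28 and 0.891, at percentiles 75.7, 89.5 and 54.5. Rps27 itself stood lower in each substage, at percentiles 25.8, 43.2 and 49.9, although its highest peak is also near a start of Rab13. The starts of both paralogs and of the uncalled Rpl3l are shown in the same form as above, to set 2 called promoters beside one without a call.
Rpl39l, chr16:10170168-10170247, plus strand: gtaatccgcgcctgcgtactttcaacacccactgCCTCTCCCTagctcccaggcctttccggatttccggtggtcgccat
Rps27l, chr9:66946026-66946105, plus strand: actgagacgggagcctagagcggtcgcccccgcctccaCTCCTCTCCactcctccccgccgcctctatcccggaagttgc
Rpl3l, chr17:24727766-24727845, plus strand: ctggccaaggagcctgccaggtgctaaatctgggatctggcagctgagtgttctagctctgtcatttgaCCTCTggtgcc
CCGGAAG was present in a promoter of Rpl39l and of Rps27l and in none of the 2 RefSeq promoters of Rpl3l, whose longest run of pyrimidines was 5 bases.

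**Figure D4:**
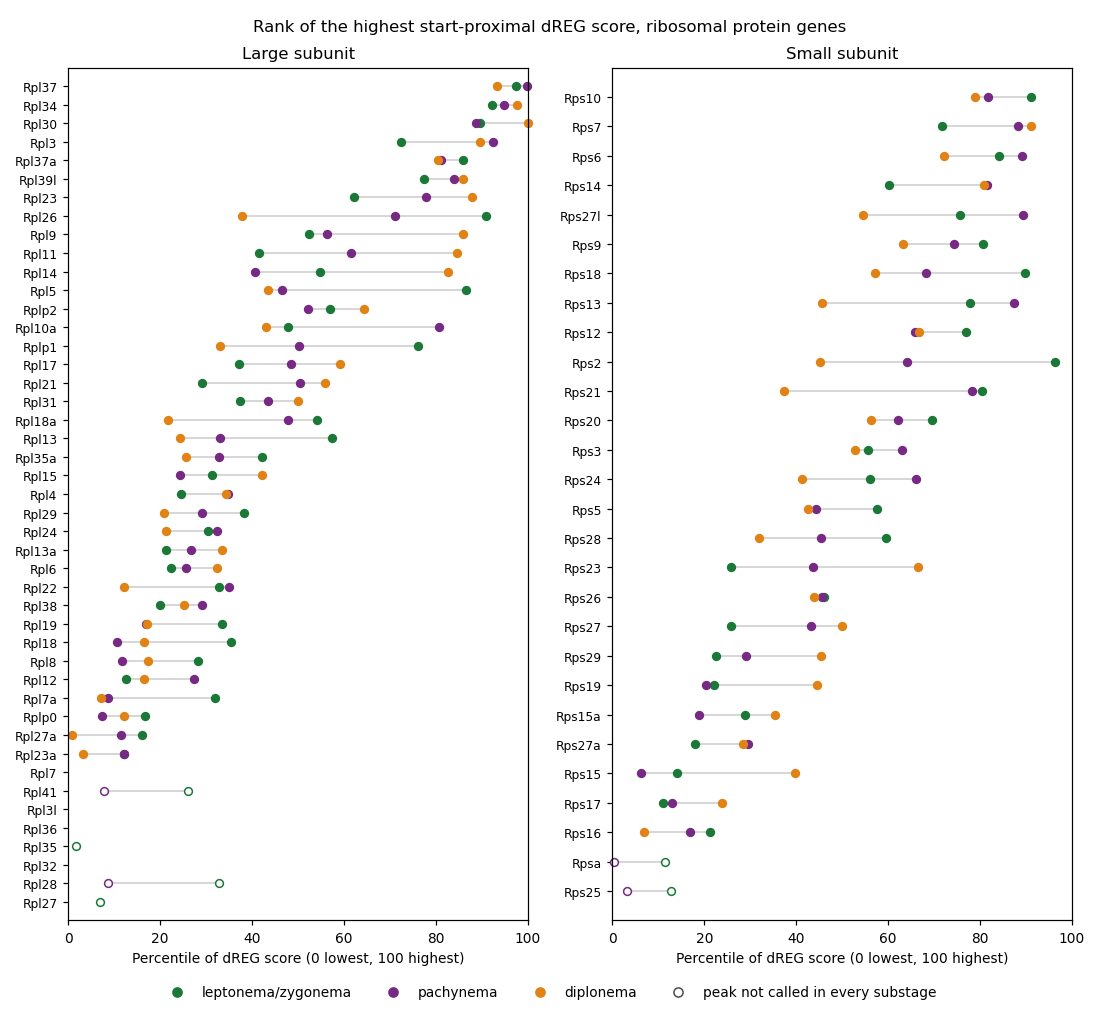
Percentile of the highest start-proximal dREG score (x axis, 0 to 100) of 45 large subunit (left) and 28 of the 30 small subunit (right) genes in leptonema/zygonema (green), pachynema (purple) and diplonema (orange), ordered by mean percentile. Open points are genes without a peak in every substage, placed by their score among the 10439 ranked genes, and genes drawn without points had no peak. Rpl37, Rpl34 and Rpl30 stand at the top right and Rpl23a at the foot of the ranked large subunit genes.

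Ranks of the members moved in both directions. The median size of the change was 9.49 points from leptonema/zygonema to pachynema and 10.1 points from pachynema to diplonema, against 10.7 and 12.7 points over all ranked genes. Between leptonema/zygonema and pachynema, 14 members rose and 16 fell by 10 points or more, where 26.5% of all ranked genes rose and 25.9% fell, and the median change was -0.764 points. With lists cut to equal length 17 rose and 15 fell at this step. With the scores of all proximal peaks summed 15 rose and 25 fell, and among all autosomal peaks 6 rose and 10 fell. Between pachynema and diplonema 13 rose and 20 fell (30.6% and 27.8% of all ranked genes), and the median change was -1.57 points. This balance turned with the scores of all proximal peaks summed, where 22 members rose and 14 fell at the same step and the median change was 2.38 points. Falls outnumbered rises by more on other scales. Among all autosomal peaks there were 1 rise, 34 falls and a median change of -10.3 points. Among genes with a peak in that substage there were 6 rises, 30 falls and a median change of -9.13 points. The ranked populations shrink at this step, from 66209 to 37376 autosomal peaks and from 12734 to 10892 genes with a peak. No shares over all genes are given on these scales or for summed scores, so these counts cannot be read as a lean of the members. Between leptonema/zygonema and diplonema 21 rose and 28 fell (34.4% and 31.7% of all ranked genes), and the median change was -4.72 points. Among all autosomal peaks 2 rose and 28 fell in this comparison. Among genes with a peak in that substage 14 rose and 32 fell, again without shares over all genes. As shares of the 64 ranked members, the rises were 21.9%, 20.3% and 32.8% and the falls 25%, 31.2% and 43.8% in the same order. Several of these lay close to the shares of all ranked genes given above. With lists cut to equal length, 17 members rose at the first step and 22 from the first to the last substage. No test was made, so these shares cannot be read as a lean of the members. The order of members was kept more closely between neighbouring substages than between the first and last: Spearman's rho over the 64 genes was 0.848 between leptonema/zygonema and pachynema, 0.788 between pachynema and diplonema and 0.611 between leptonema/zygonema and diplonema. Over all 10439 ranked genes it was 0.768, 0.735 and 0.550, and in both cases the points share the caller, the annotation and the base composition of the same promoters. The other families moved upwards on balance at the first step, with median changes of 7.43 points for the mitochondrial ribosome, 2.39 for the proteasome and 6.39 for complex I. At the second step their median changes were -4.09, 0.702 and 3.72 points, and 41.0%, 17.6% and 34.5% of their ranked genes fell by 10 points or more. The share of members that fell at that step, 31.2%, thus lay below those of the mitochondrial ribosome and complex I and above that of the proteasome. From the first to the last substage 37.7%, 20.6% and 24.1% of these families fell.

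Among the largest falls from leptonema/zygonema to pachynema were those of Rpl5 (-40.1 points), Rps2 (-32.2), Rplp1 (-26.0) and Rpl18 (-24.97). Rps2, a protein at the entry of the mRNA channel, stood at percentiles 96.3, 64.1 and 45.1 in the 3 substages, and its highest peak is also near a start of Rnf151. Rpl18 stood at 35.5, 10.5 and 16.5, and its highest peak is also near a start of Sphk2. Rps2 and Rplp1 thus fell by more than 10 points at both steps, whereas Rpl5 and Rpl18 did so at the first step alone. With the scores of all proximal peaks summed, Rps2 changed by -1.16 points at the first step. Ranked among all autosomal peaks, Rpl5 changed by -8.96 points, Rps2 by -6.69 and Rplp1 by -4.98, all less than the 10 points that count as a fall.

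The largest rises at this step were those of Rpl10a (32.8 points), Rps14 (21.3), Rpl21 (21.2), Rpl11 (20.1) and Rpl3 (19.99). Rpl10a, the protein of the L1 stalk that helps the leaving tRNA out of the ribosome, stood at 47.8, 80.7 and 43.1, so that its place in leptonema/zygonema and in diplonema differed by less than 10 points. Rps14, lost in the 5q- syndrome of human marrow, stood at 60.3, 81.6 and 80.9. Rpl21 stood at 29.1, 50.3 and 55.9. The rise of Rpl3 rested on the peak inside the gene: ranked from its 5′ end alone, Rpl3 stood at 73.6, 50.1 and 27.9 and fell at both steps. With scores summed none of these 5 rose by 10 points: Rpl10a changed by -18.6, Rps14 by -1.58, Rpl21 by 6.38, Rpl11 by 5.95 and Rpl3 by 4.13 points. Among all autosomal peaks Rpl11, Rps14 and Rpl3 rose by 8.30, 6.95 and 5.90 points.

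From pachynema to diplonema the largest rises were those of Rpl14 (42.0 points), Rps15 (33.6), Rpl9 (29.7), Rps19 (24.3) and Rpl11 (23.1). Rpl14 stood at 54.8, 40.6 and 82.6 in the 3 substages. Rps15, whose tail reaches the decoding site, stood at 14.0, 6.28 and 39.8, and Rps19, the gene most often mutated in Diamond-Blackfan anaemia, at 22.2, 20.3 and 44.6. Rps15 and Rps19 rose from the lower part of the ranking to near its middle. Rpl9 stood at 52.3, 56.3 and 86.0, with a highest peak that is also near a start of Lias. Rpl11 was the only one of these 5 that had also risen by 10 points or more at the first step. With scores summed, Rps15 changed by -4.94 points and Rps19 by -1.09. Among all autosomal peaks Rps15 alone of the 5 rose by 10 points or more, and Rpl14, Rpl9, Rpl11 and Rps19 rose by 9.15, 5.48, 3.54 and 2.67 points.

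The largest falls were those of Rps13 (-41.8 points), Rps21 (-40.8), Rpl10a (-37.6), Rps27l (-35.0) and Rpl26 (-33.3). Rps13 stood at 77.8, 87.3 and 45.5, and Rps21 at 80.4, 78.2 and 37.3. Rpl26, which also binds the mRNA of p53, stood at 90.8, 71.0 and 37.7. All 5 stood above percentile 70 in pachynema and below percentile 55 in diplonema. The steps of the 2 comparisons share the pachynema list, so a high or low value there enters both with opposite sign. With the scores of all proximal peaks summed, Rpl10a, Rps13 and Rps21 changed by 17.4, 9.46 and 17.6 points at this step, against the direction of their highest peaks.

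**Figure D5:**
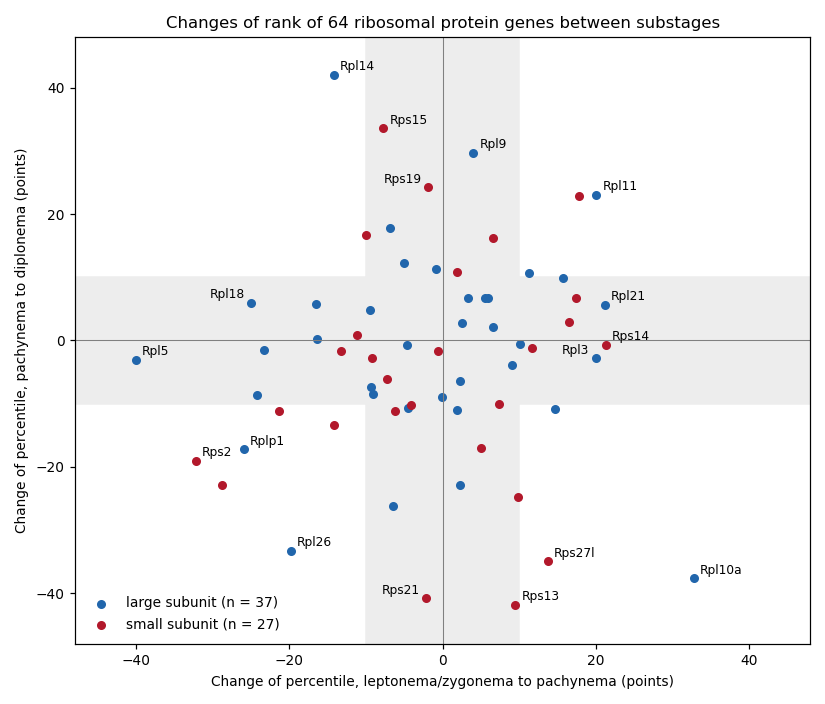
Change of percentile of each of the 64 ranked ribosomal protein genes from leptonema/zygonema to pachynema (x axis, points) and from pachynema to diplonema (y axis, points), for the large (blue, 37 genes) and small subunit (red, 27 genes). Grey bands cover changes under 10 points, both axes share the pachynema value, and the labelled genes are among the 5 largest rises and falls of each step; Rpl5 lies farthest left at -40.1 and Rpl14 highest at 42.0.

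Features of the genes that the symbols do not fix went with rank to different degrees. CCGGAAG was present in a promoter of 20 of the 48 ranked members with a RefSeq entry, and these had median percentiles of 73.7, 66.2 and 52.3, against 38.9, 37.7 and 40.6 for the 28 without it. Over all ranked genes with an entry the medians were 58.2, 58.6 and 58.2 with the string and 49.3, 49.1 and 48.8 without it. TCTCGCGA went the other way: the 9 ranked members that hold it had medians of 31.9, 27.3 and 35.5, against 54.8, 46.4 and 45.5 for the 39 without it. Over all ranked genes it accompanied higher ranks, with medians of 65.4, 67.5 and 69.8 for the 235 genes that hold it and 50.5, 50.7 and 50.1 for the others. The 25 ranked members with CTTTCC had medians of 35.5, 34.9 and 37.7, and the 23 without it had 57.0, 52.0 and 52.8. Over all ranked genes the medians lay closer together, at 49.3, 48.9 and 49.2 with CTTTCC and 52.3, 52.2 and 51.4 without it. The 11 ranked members with a C and 4 pyrimidines at the start had medians of 54.8, 43.2 and 49.9, close to the 47.8, 45.5 and 43.4 of the 37 without. With C or T at the start, 24 members had medians of 57.2, 58.1 and 45.3, against 34.4, 39.3 and 41.6 for the 24 without. Over all ranked genes these were 50.6, 50.7 and 50.7 against 51.3, 51.6 and 50.7. The 28 members with GGGCGG had 39.85, 36.8 and 42.6, against 57.9, 58.9 and 46.9 for the 20 without. These are descriptions of small groups that overlap, and no test was made of them.

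Of the 75 members, 27 hold at least 1 snoRNA gene on their strand, as many hosts of these small RNAs are ribosomal protein genes. The 24 ranked hosts had median percentiles of 56.3, 49.3 and 44.2, and the 40 other ranked members had 44.2, 44.0 and 42.8. The highest peak of 16 members was also less than 1000 bp from a start of another protein-coding gene, so their initiation cannot be told apart from that of the neighbour. The 14 of these that were ranked had medians of 38.9, 39.0 and 38.1, and the 50 others had 54.5, 48.1 and 43.6. The members are short, with a median span of 3431 bp from 828 bp (Rpl36) upwards, against 17629 bp over all genes.

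Genes that act with the ribosomal proteins were described on the same scale. Of 14 translation factors and other genes with TOP mRNAs, 14 had a peak in each substage, with medians of 55.4, 61.2 and 70.0. Eef1a1, the main elongation factor, stood at 85.1, 63.7 and 68.6, and Eif3e, a subunit of initiation factor 3, at 57.7, 75.6 and 95.5. From leptonema/zygonema to pachynema 4 of these 14 rose by 10 points or more and 5 fell, with a median change of -3.09 points per gene. From pachynema to diplonema 5 rose and 3 fell, and from the first to the last substage 5 rose and 4 fell, with a median change of 1.99 points. Of 20 ribosome assembly factors, 20, 20 and 18 had a peak, and the 18 ranked had medians of 58.8, 67.6 and 70.0. At the first step 6 of the 18 rose by 10 points or more and 3 fell, and at the second 4 rose and 4 fell. From the first to the last substage 6 rose and 4 fell, with a median change of 3.51 points per gene. Nop14, needed to process the small subunit RNA, stood at 94.4, 98.5 and 98.7, whereas Tsr1, a late factor of the same subunit, stood at 6.18, 8.93 and 2.18.

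Of 9 genes for RNA polymerase I and its factors, 8, 8 and 6 had a peak, and the 6 ranked had medians of 54.0, 42.7 and 62.7. Ubtf, which holds ribosomal DNA open, would stand at 14.8 and 0.613 in the first 2 substages and had no peak in diplonema. All 8 regulators of the translation of ribosomal protein mRNAs had a peak in each substage, with medians of 65.5, 46.4 and 26.3. Eif4ebp1, the repressor of cap binding that mTOR inactivates, stood at 96.1, 43.2 and 9.93, and Larp1 at 75.9, 83.1 and 89.1. From pachynema to diplonema 4 of the 8 fell by 10 points or more and 1 rose. From the first to the last substage 3 fell and 1 rose. The median change per gene was -5.15 points at the first step and -7.63 from the first to the last substage, less than the group medians differ. All 8 transcription factors known at ribosomal protein promoters had a peak, with medians of 45.6, 47.8 and 54.9, and 2 rose and 3 fell at the first step and 3 rose and 2 fell at the second; Gabpa stood at 64.5, 54.4 and 51.4 and Yy1 at 43.4, 62.2 and 47.6.

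Of 11 related genes that the rule leaves out, 9, 10 and 8 had a peak in the 3 substages, and 4 of them lie on the X chromosome. Placed among the autosomal genes by their scores, Rpl10 stood at 43.6, 52.9 and 26.8, and its autosomal copy Rpl10l, on chromosome 12, at 75.2, 66.6 and 81.0. Rpl36a stood at 21.1, 67.1 and 33.7 and its autosomal copy Rpl36al at 71.8, 49.9 and 84.2. Rpl39 stood at 16.9 and 4.32 with no peak in diplonema, while its copy Rpl39l stood at 77.4, 83.9 and 86.0. In leptonema/zygonema each of the 3 autosomal copies thus stood above its X-linked gene, as did the 2 that could be compared in diplonema, whereas in pachynema Rpl36al stood below Rpl36a. For the genes outside the rule, whether a peak is also near a start of another gene was not looked up. Rps4x, which has no such autosomal copy in the list, had no peak in leptonema/zygonema and would stand at 0.570 and 8.10 afterwards. Fau had no peak in any substage.

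Markers of the substages and of other testis cells were read from the same lists. Of 8 genes of early prophase I, 8, 8 and 7 had a peak, and the 7 with a peak in each substage had medians of 51.3, 73.0 and 95.4. From pachynema to diplonema 4 of these 7 rose by 10 points or more and 1 fell. The median change per gene was 2.37 points at the first step and 8.26 from the first to the last substage, less than the group medians differ. Between the first and last substage 3 rose by 10 points or more and 2 fell, Dmc1 by -34.3 points and Prdm9 by -15.3. Sycp3, of the synaptonemal complex, stood at 38.1, 73.0 and 96.4, whereas Stra8, needed for entry into meiosis, stood at 14.4 and 5.30 and had no peak in diplonema. All 8 genes of pachynema and later had a peak in each substage, with medians of 63.5, 67.4 and 91.6, and from pachynema to diplonema 4 rose and 1 fell. From the first to the last substage 5 rose and 1 fell, with a median change of 14.1 points per gene. Piwil1 stood at 16.9, 53.7 and 98.2, and Mybl1, the one that fell, at 54.6, 62.7 and 35.6. Of 6 spermatid genes 5 had a peak in each substage, Tnp2 had none, and Prm1 and Prm2, which share a peak, stood at 10.5, 4.71 and 37.6. Of 6 spermatogonial genes 4 had a peak in each substage, with medians of 38.0, 39.8 and 17.4, and Gfra1 and Nanos3 had none. From pachynema to diplonema 1 of these 4 rose and 2 fell, Kit from 35.5 to 3.80 and Dmrt1 from 44.1 to 2.99. Of 5 Sertoli cell genes 3, 5 and 4 had a peak, and Sox9 stood at 1.70, 8.14 and 20.4. Of 5 Leydig cell genes only Cyp11a1 had a peak, in pachynema, and none of the 3 macrophage genes had one. From pachynema to diplonema 3 of the 5 ranked spermatid genes rose by 10 points or more and 1 fell, and 2 of the 3 ranked Sertoli cell genes rose and 1 fell. The part of such cells in the changes of the ribosomal protein genes was not tested.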

How the data were processed

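leChRO-seq libraries (4 per substage) were prepared from wild-type spermatocytes. Per the methods, the authors collapsed PCR duplicates through the molecular identifiers in the adapters, cut the adapters with cutadapt, aligned with BWA to mm10 plus 1 ribosomal DNA copy, and called peaks with dREG at its default settings. The names of the deposited lists give them as merged over a substage. The dREG version is not given in the sources used here, the lists hold no read depth, and the normalization factors that the study gives for each library were not used here. Each deposited peak carries a dREG score and a p-value; the deposited p-value is at most 0.05 in all 3 lists, and whether it was adjusted is not stated. A sixth deposited column, a position within or just outside the peak, was not used, and there were 0 unused columns of single samples.

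Starts were those of all GENCODE M21 transcripts (mm10). A gene took the highest score among peaks whose nearest edge was under 1000 bp from a start, expressed as a percentile among genes called in all 3 substages; a change of 10 points or more was called a rise or a fall. Promoters came from RefSeq (GRCm38.p6, the same coordinates as mm10); 55 of 75 members matched, and all 67 promoters equalled the genome. Named members were those without a peak, the 5 highest and lowest, the 5 largest moves of each step, the stalk, Rpl5, Rpl11 and the paralogs; some of the genes that this rule and the lists name are not reported here. The members, lists and strings were chosen with earlier results of these data known. With a single pooled list per substage no test was made. The steps were tested on simulated data (Python 3.11.15, pandas 2.3.3, pysam 0.24.0), and 18 alternative settings were tried.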

Additional observations from a re-analysis of the deposited data

How the results depend on the processing

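The number of members with a peak stayed within 1.5 times its value under all 9 alternatives tried, from 55 to 71 in leptonema/zygonema, 54 to 69 in pachynema and 50 to 64 in diplonema, where the lowest values left out the 16 members with a shared peak. Of 272 alternative values for counts, medians and shares, 220 stayed close to the reported value (counts within 1.5 times, medians within the 95% order-statistic interval, shares within the 95% Wilson interval). The interval for medians was taken over member genes, which are not replicates. It was wide, from 33.4 to 59.6 for the median in leptonema/zygonema. A median change could thus turn its sign and still count as close, so the number 220 is no measure of robustness. Ranks depended most on what the members were ranked among. Among all genes the medians were 68.1, 71.2 and 68.6, the members in the top decile 14, 13 and 12, and the rises 8, 6 and 13 from leptonema/zygonema to pachynema, pachynema to diplonema and leptonema/zygonema to diplonema; here genes without a peak fill the lower ranks by construction. Among all autosomal peaks, most of which lie away from starts, the medians were 83.5, 86.5 and 75.9 and the members in the top decile 22, 25 and 14. On that scale 6 members rose and 10 fell at the first step with a median change of 0.700 points, above 0 where the reported one was below, 1 rose and 34 fell at the second with a median change of -10.3 points, and 2 rose from the first to the last substage. Among genes with a peak in that substage the top decile held 7 members in pachynema, and from pachynema to diplonema 6 rose and the median change was -9.13 points. No shares of rises and falls over all genes are given for these scales. With scores summed, 25 members fell at the first step, 22 rose and 14 fell at the second with a median change of 2.38 points, and the top decile held 3 in leptonema/zygonema and 1 in diplonema. With scores of at least 0.5 the top decile held 3 in leptonema/zygonema and the median in diplonema was 33.5. Without members that share a peak the top decile held 3 in leptonema/zygonema and 9 rose at the first step. At 5 points 23 rose and 26 fell at the first step and 21 rose at the second; at 20 points 4 rose and 8 fell, 6 rose and 9 fell, and 12 rose and 14 fell in the 3 comparisons. With scores summed, the direction of 7 named moves reversed: Rpl10a to -18.6 and 17.4 points, Rps14 to -1.58, Rps13 to 9.46, Rps15 to -4.94, Rps19 to -1.09 and Rps21 to 17.6. Some other named moves kept their direction but came to less than 10 points with scores summed or among all autosomal peaks, with the values given beside each. From the 5′ end alone Rpl3 changed by -23.6 points at the first step. At GENCODE ends the C with 4 pyrimidines was found in 7.27% of members (2.32% of all), the run of pyrimidines in 47.3% (29.9% of all), GGGCGG in 43.6% (44.8% of all) and GTTGCCA in 0% (4.28% of all). In the 100 bases before the start, a shorter window, CCGGAAG was found in 19.4% of members (6.15% of all promoters), GGGCGG in 31.3% (33.8% of all), ATGGCG in 11.9% (2.88% of all), CTTTCC in 14.9% (8.504% of all), GCAGTT in 1.49% (4.06% of all), and TATAAA and GCATGCGC in 0% (5.78% and 1.94% of all); TCTCGCGA was found in 13.4% (0.812% of all). Except where construction shows it, the cause was not tested. No paired analysis was possible because there is a single merged list per substage, and the lists carry no replicate number, and leaving out a replicate was likewise not possible.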

Other observations

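Ribosomal protein genes have left many processed copies in the mouse genome, and these were looked up in the same lists. Of 259 annotated autosomal pseudogenes with a ribosomal protein symbol, 18 lay less than 1000 bp from a peak in leptonema/zygonema, 19 did so in pachynema and 10 did so in diplonema. These were 6.95%, 7.34% and 3.86% of them, close to the 7.17%, 7.75% and 4.27% of all 9193 autosomal pseudogenes of the same annotated types. At 17, 17 and 9 of those near a peak, that peak was not near a start of a protein-coding transcript, and at 6, 5 and 5 of the 259 a peak covered the annotated start, against 3.46%, 3.89% and 2.24% of all of these types.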
